A study of Mus musculus with 8 samples.

Results

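The lysyl oxidases and collagen hydroxylases are the enzymes that modify collagen chains inside the cell and cross-link collagen and elastin outside it. For this account 10 of their genes were matched by symbol among the 52110 gene rows of a table of raw RNA-seq counts, namely Lox, Loxl1, Loxl2, Loxl3, Loxl4, Plod1, Plod2, Plod3, P4ha2 and P4ha3. The cells were wild-type primary fibroblasts of mouse lung in serum-containing medium, either untreated or given recombinant TWEAK, which belongs to the TNF family of cytokines, at 10, 30 or 100 ng/ml over 48 hours. There were 8 libraries, 2 untreated and 2 at each dose, holding between 37345575 and 50896445 counts. Whether the pair of libraries at a dose stems from different cultures or mice is not labelled, and a p-value here therefore speaks only of the scatter within such pairs, which may be technical. Doses are those on the labels. On the first principal component of all genes, with 49.7% of the variance, the libraries labelled 100 ng/ml (-36.2 and -37.7) lay nearer to the untreated ones (-67.6 and -66.5) than did those labelled 30 ng/ml (48.7 and 35.3) and 10 ng/ml (61.4 and 62.6). The files cannot show whether the dose labels are in the right order, and each value for a dose holds only as far as its label does.

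Newly made collagen chains are hydroxylated on proline and on lysine in the endoplasmic reticulum before they fold into a triple helix. Prolyl 4-hydroxylase, built of an alpha subunit (P4ha1, P4ha2 or P4ha3) and the disulfide isomerase P4hb, makes the hydroxyproline that keeps the helix stable at body temperature. The lysyl hydroxylases Plod1, Plod2 and Plod3 make hydroxylysine, which carries sugars and shapes the later cross-links, and Plod2 is known for hydroxylating the telopeptides. The copper enzymes Lox and Loxl1 to Loxl4 then oxidise lysine and hydroxylysine outside the cell to aldehydes that form the cross-links of collagen and elastin. In lung these enzymes are known for their part in matrix stiffness, and LOX, LOXL2 and PLOD2 have been studied in human fibrosis.

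Promoter windows were read for 5 of the members. Each was a RefSeq promoter of GRCm38.p6, running from 250 bases before to 50 after the gene's start. Promoters of the other members, Lox among them, were not searched. The lack of a window here does not mean that RefSeq holds no promoter for them. The 5 members read were Plod1, Plod3, P4ha2, P4ha3 and Loxl4. Of these, 4 are shown, because each pair comes from 1 enzyme class and holds a gene that fell with TWEAK (Plod1, P4ha3) and a gene that did not (Plod3, P4ha2). They are chr4:147936727-147937026 on the minus strand, chr5:136986769-136987068 on the plus strand, chr7:100285270-100285569 on the plus strand and chr11:54100674-54100973 on the plus strand. The P4ha2 window lies inside the gene as annotated, whose start is at 54100095, so matches in that window are not upstream of it. Capitals mark ACGTG, the core of the hypoxia response element, on either strand.
Plod1: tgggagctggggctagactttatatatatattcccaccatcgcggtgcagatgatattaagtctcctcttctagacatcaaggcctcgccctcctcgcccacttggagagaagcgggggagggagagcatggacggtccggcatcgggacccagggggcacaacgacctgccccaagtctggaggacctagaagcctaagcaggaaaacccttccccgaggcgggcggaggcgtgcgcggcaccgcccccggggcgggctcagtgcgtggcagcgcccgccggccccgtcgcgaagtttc
Plod3: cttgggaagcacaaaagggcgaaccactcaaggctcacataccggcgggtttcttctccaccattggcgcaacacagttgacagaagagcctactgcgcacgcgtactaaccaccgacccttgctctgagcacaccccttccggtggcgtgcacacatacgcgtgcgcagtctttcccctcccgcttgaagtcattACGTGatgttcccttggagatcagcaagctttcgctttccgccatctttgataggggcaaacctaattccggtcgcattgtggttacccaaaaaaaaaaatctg
P4ha3: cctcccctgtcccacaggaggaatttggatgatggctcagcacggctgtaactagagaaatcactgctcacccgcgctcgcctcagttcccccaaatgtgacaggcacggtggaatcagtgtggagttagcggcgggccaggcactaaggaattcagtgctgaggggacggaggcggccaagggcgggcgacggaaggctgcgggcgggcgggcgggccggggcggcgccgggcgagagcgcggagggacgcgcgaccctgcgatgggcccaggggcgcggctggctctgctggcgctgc
P4ha2: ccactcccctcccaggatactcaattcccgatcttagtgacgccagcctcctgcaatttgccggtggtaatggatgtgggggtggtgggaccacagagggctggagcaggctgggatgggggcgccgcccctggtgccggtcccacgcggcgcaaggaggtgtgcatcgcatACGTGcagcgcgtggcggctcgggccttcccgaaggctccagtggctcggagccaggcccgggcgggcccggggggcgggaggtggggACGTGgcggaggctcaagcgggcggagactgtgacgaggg

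Both strands were searched for ACGTG, for the AP-1 site TGANTCA and for the NF-kB consensus. The core ACGTG stood once in the Plod3 window and 2 times in the P4ha2 window, and it was not found in the windows of Plod1, P4ha3 and Loxl4. None of its matches lay within the longer palindrome CACGTG. It occurred in 19.6% of all 32851 promoters of that length. The NF-kB consensus was found in the Loxl4 window, against 4.51% of all promoters, and TGANTCA was found in none of the 5 windows, against 7.81% of all promoters. These matches describe letters in a window and were not tested against the expression values.

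The members did not all move one way. At 10 ng/ml, Lox, Loxl1, Loxl2, Plod1, Plod2 and P4ha3 fell, P4ha2 rose, and Loxl3, Loxl4 and Plod3 did not pass the test. The same members made the same calls at 30 ng/ml. In the libraries labelled 100 ng/ml none of the 10 passed the test by edgeR's quasi-likelihood test. All 10 members passed the low-count filter, and changes were called at a Benjamini-Hochberg adjusted p under 0.05 over the 17360 genes tested. The background was 14.2% of all genes lower and 15% higher at 10 ng/ml, and 10.7% lower and 12.6% higher at 30 ng/ml, against 6 of 10 members lower and 1 higher in each, and in either direction 29.2% and 23.3% of all genes were called. The 4041 calls at 30 ng/ml became 2557, 2685 and 2653 without untreated replicate 1, untreated replicate 2 and TWEAK30 replicate 1. By library values, 6 members lay wholly below and 3 wholly above the untreated libraries at 10 ng/ml, where 32.5% of all genes lay below and 33.1% above. The counts were again 6 and 3 at 30 ng/ml, where 30.9% of all genes lay below and 32.4% above. The comparisons at the 3 doses share the same untreated libraries. The median log2 change of the members was -0.78 at 10 ng/ml and -0.64 at 30 ng/ml, against 0.01 over all genes tested in both. Counts in bulk RNA cannot tell fewer cells of a type from less RNA per cell.

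Among the lysyl oxidases, Lox, the founding member of the family, changed most at both lower doses. Its level, in CPM (counts scaled by library size, with TMM factors that allow for differences in composition), was 455 and 468 CPM in the untreated libraries, 111 and 106 CPM at 10 ng/ml, 125 and 166 CPM at 30 ng/ml, and 371 and 372 CPM at 100 ng/ml. The untreated libraries and those labelled 100 ng/ml were high, both lower doses were low, and none of the 3 doses overlapped the untreated libraries. At 10 ng/ml its level was 0.235 times that of untreated cells, and the log2 change was -2.09 with an SE of 0.12 (edgeR adjusted p = 1.5e-05). Errors given after log2 changes are SE throughout. At 30 ng/ml the log2 change was -1.66 ± 0.12 (edgeR adjusted p = 6.14e-05). At 100 ng/ml it was -0.31 ± 0.12, with a 95% interval from -0.58 to -0.04 and an edgeR adjusted p of 0.346.

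**Figure D1:**
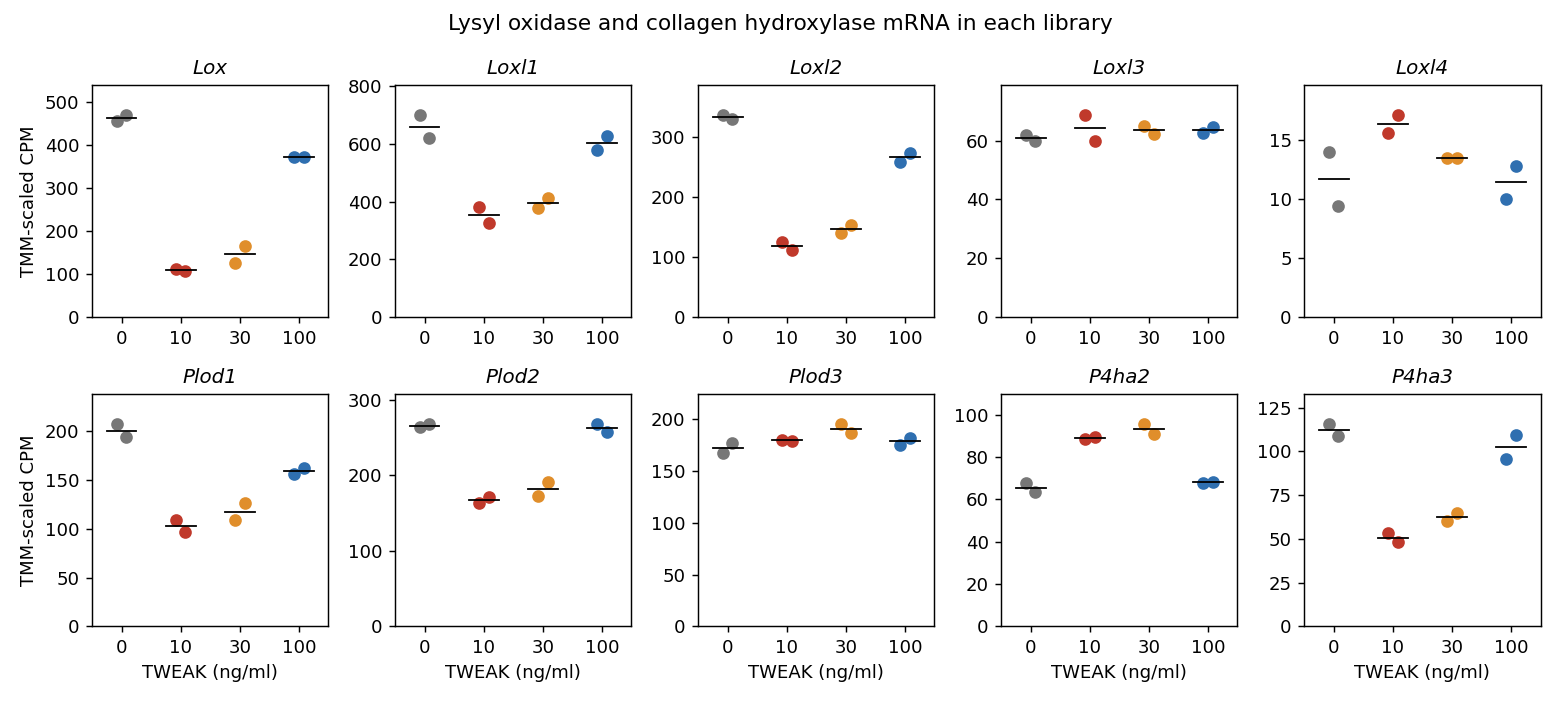
TMM-scaled CPM (y axis) of each of the 10 genes in each library against the labelled TWEAK dose (x axis, ng/ml, 0 is untreated); points are libraries and lines are means of 2. Lox stood between 106 and 166 CPM at 10 and 30 ng/ml, below the 371 and 372 CPM at 100 ng/ml and the 455 and 468 CPM of untreated cells, while Loxl3 stayed between 59.8 and 68.6 CPM in all 8 libraries.

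Loxl2, a lysyl oxidase with scavenger receptor domains that acts on collagen IV of basement membranes, followed the same order. It stood at 336 and 329 CPM in untreated libraries, 125 and 112 CPM at 10 ng/ml, 139.6 and 153 CPM at 30 ng/ml, and 258 and 274 CPM at 100 ng/ml. No library with TWEAK reached the untreated range. The log2 change was -1.49 ± 0.08 at 10 ng/ml (edgeR adjusted p = 1.09e-05) and -1.19 ± 0.08 at 30 ng/ml (edgeR adjusted p = 4.49e-05). At 100 ng/ml it was -0.32 ± 0.08, with a 95% interval from -0.51 to -0.14 and an edgeR adjusted p of 0.127, and DESeq2 called it (adjusted p = 0.0192).

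Loxl1, which is required for the deposition of elastic fibres, was the most abundant of the 10 genes per kilobase in each group. It stood at 699.6 and 621 CPM in untreated libraries, 382 and 326 CPM at 10 ng/ml, 379 and 414 CPM at 30 ng/ml, and 578 and 627 CPM at 100 ng/ml. Both lower doses lay apart from untreated cells, and the libraries labelled 100 ng/ml overlapped them. On the log2 scale it fell by 0.90 ± 0.10 at 10 ng/ml and by 0.74 ± 0.10 at 30 ng/ml (edgeR adjusted p = 0.000324 and 0.00121). At 100 ng/ml the log2 change was -0.13 ± 0.10, with a 95% interval from -0.36 to 0.09.

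Loxl3 and Loxl4, which share the scavenger receptor domains of Loxl2, did not pass the test at any dose. Loxl3 ranged from 59.8 to 61.9 CPM in untreated libraries, from 59.9 to 68.6 CPM at 10 ng/ml, from 62.1 to 65.1 CPM at 30 ng/ml and from 62.5 to 64.6 CPM at 100 ng/ml. Its log2 change at 10 ng/ml was 0.08 ± 0.08, with a 95% interval from -0.12 to 0.27, so that a fall of the size of Loxl1 lay outside the interval. Loxl4, the least abundant member per kilobase, stood at 13.9 and 9.37 CPM in untreated libraries, 15.5 and 17.1 CPM at 10 ng/ml, 13.5 CPM in both libraries at 30 ng/ml, and 10.0 and 12.8 CPM at 100 ng/ml. The untreated libraries differed more from each other than those of any other dose did for this gene. Its log2 change at 10 ng/ml was 0.49 ± 0.20 with a 95% interval from 0.02 to 0.95 (edgeR adjusted p = 0.114), and it became 0.80 (edgeR adjusted p = 0.0297) without untreated replicate 1.

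The lysyl hydroxylases also parted. Plod2, the telopeptide lysyl hydroxylase, stood at 264 and 268 CPM in untreated libraries, 164 and 172 CPM at 10 ng/ml, 173 and 191 CPM at 30 ng/ml, and 268 and 258 CPM at 100 ng/ml. The libraries labelled 100 ng/ml overlapped the untreated ones, and both lower doses lay below. On the log2 scale Plod2 fell by 0.66 ± 0.07 at 10 ng/ml (edgeR adjusted p = 0.000241) and by 0.55 ± 0.07 at 30 ng/ml (edgeR adjusted p = 0.000873). Its change at 100 ng/ml was -0.02 ± 0.07, with a 95% interval from -0.17 to 0.14.

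Plod1, which hydroxylates lysines within the collagen helix, stood at 207 and 194 CPM in untreated libraries, 109 and 97.0 CPM at 10 ng/ml, 109 and 126 CPM at 30 ng/ml, and 156 and 163 CPM at 100 ng/ml. Each dose lay below the untreated libraries without overlap. The log2 change was -0.96 ± 0.10 at 10 ng/ml, -0.77 ± 0.10 at 30 ng/ml and -0.33 ± 0.09 at 100 ng/ml (edgeR adjusted p = 0.000202, 0.000827 and 0.189), and DESeq2 called the last (adjusted p = 0.0449). Plod3, which also transfers sugars to hydroxylysine, ranged from 168 to 177 CPM in untreated libraries and from 175 to 195 CPM over the 6 libraries with TWEAK. Its largest log2 change was 0.15 ± 0.06 at 30 ng/ml, with a 95% interval from 0.003 to 0.29 (edgeR adjusted p = 0.137).

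The alpha subunits of prolyl 4-hydroxylase moved in opposite directions. P4ha2 stood at 67.7 and 63.3 CPM in untreated libraries, 88.4 and 89.3 CPM at 10 ng/ml, 95.5 and 90.8 CPM at 30 ng/ml, and 68.0 and 68.4 CPM at 100 ng/ml. Both lower doses lay above untreated cells, and the libraries labelled 100 ng/ml lay just above them. P4ha2 rose by 0.44 ± 0.07 at 10 ng/ml and 0.51 ± 0.07 at 30 ng/ml on the log2 scale (edgeR adjusted p = 0.00203 and 0.00127), and its change at 100 ng/ml was 0.06 ± 0.07 with a 95% interval from -0.10 to 0.22.

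P4ha3 stood at 115 and 109 CPM in untreated libraries, 53.4 and 48.0 CPM at 10 ng/ml, 60.2 and 64.5 CPM at 30 ng/ml, and 95.9 and 109 CPM at 100 ng/ml. It fell at 10 ng/ml (log2 change -1.15 ± 0.09, edgeR adjusted p = 7.15e-05) and at 30 ng/ml (-0.85 ± 0.09, edgeR adjusted p = 0.000449). The libraries labelled 100 ng/ml overlapped the untreated ones (log2 change -0.13 ± 0.09, 95% interval from -0.34 to 0.08). The remaining alpha subunit gene, P4ha1, and the partner subunit P4hb were picked out after their values were seen. P4ha1 averaged 243 ± 3.69 CPM in untreated cells, 235 ± 5.42 CPM at 10 ng/ml, 236 ± 7.77 CPM at 30 ng/ml and 234 ± 19.3 CPM at 100 ng/ml (SD, n = 2 each), with log2 changes between -0.06 and -0.04. P4hb rose by 0.17 ± 0.04 at 10 ng/ml and 0.19 ± 0.04 at 30 ng/ml on the log2 scale (edgeR adjusted p = 0.0165 and 0.0103).

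**Figure D2:**
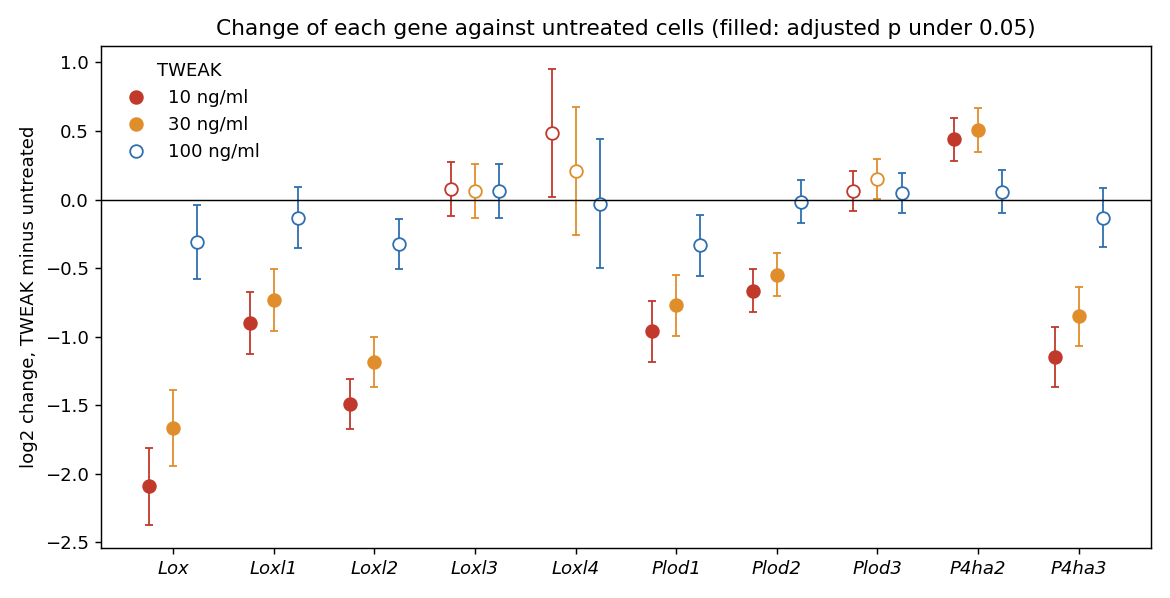
Log2 change against untreated cells (y axis) of each gene (x axis) at 10, 30 and 100 ng/ml TWEAK; bars are 95% intervals and filled points passed the edgeR test. The 6 falling genes ran from -2.09 for Lox to -0.66 for Plod2 at 10 ng/ml, and all points of 100 ng/ml are open.

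The differences between doses were tested directly. Between 100 and 10 ng/ml, Lox, Loxl1, Loxl2, Plod1, Plod2 and P4ha3 were higher at 100 ng/ml and P4ha2 was lower, 6 higher and 1 lower of 10, against 10.7% of all genes higher, 11.2% lower and 22% in either direction. The 3816 calls behind that share became 2445 without TWEAK100 replicate 1. By library values 6 members lay wholly above and 2, P4ha2 and Loxl4, wholly below 10 ng/ml, where 29.8% of all genes lay above and 30.8% below. The difference was 1.78 ± 0.12 for Lox, 1.17 ± 0.08 for Loxl2, 1.02 ± 0.09 for P4ha3 and -0.38 ± 0.07 for P4ha2 on the log2 scale (edgeR adjusted p = 6.73e-05, 6.77e-05, 0.000231 and 0.00574). For Loxl1, Plod2 and Plod1 it was 0.77 ± 0.10, 0.65 ± 0.07 and 0.63 ± 0.10.

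The same members differed between 100 and 30 ng/ml, again 6 higher and 1 lower at 100 ng/ml, against 7.15% of all genes higher, 8.04% lower and 15.2% in either direction. The 2637 calls behind that share became 1393 when TWEAK30 replicate 1 was left out, and 1594 and 1677 when TWEAK100 replicates 1 and 2 were. By library values 6 members lay wholly above and 3 wholly below 30 ng/ml, where 27.8% of all genes lay above and 29.5% below. The difference was largest for Lox, at 1.35 ± 0.12 on the log2 scale (edgeR adjusted p = 0.00038), and smallest among the 7 called members for Plod1, at 0.44 ± 0.09 (edgeR adjusted p = 0.0187). The call on Plod1 was lost without TWEAK30 replicate 1 (adjusted p = 0.112), TWEAK100 replicate 1 (0.0623) or TWEAK100 replicate 2 (0.0882). Between 30 and 10 ng/ml no member passed edgeR's test and neither did any of the genes tested, a background of 0%. At an unadjusted p under 0.05 there were 3 members, Lox, Loxl2 and P4ha3, all higher at 30 ng/ml. DESeq2 called 1, Lox (log2 difference 0.42, adjusted p = 0.0351), and limma-voom called 0. The libraries at 30 ng/ml lay wholly above those at 10 ng/ml for 6 members and wholly below for 1, against 18.5% and 17.9% of all genes. Over all genes the counts of calls were 1208 at an unadjusted p under 0.05, 129 by DESeq2 and 0 by limma-voom, and leaving out 1 library gave 3 to 59 by edgeR, the highest without TWEAK30 replicate 1.

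The 0 calls by edgeR at 100 ng/ml against untreated cells compare with 1.12% of all genes, 0.812% higher and 0.305% lower. DESeq2 called 598 genes there and edgeR 194, which became 88 and 101 without untreated replicates 1 and 2, and 105 and 126 without TWEAK100 replicates 1 and 2. Lox, Loxl2 and Plod1, 3 members, had an unadjusted p under 0.05, all lower, as had 11.6% of all genes in either direction, and DESeq2 called 2 of them, Loxl2 and Plod1, while limma-voom called 0. The 3 members and no other had libraries at 100 ng/ml wholly below the untreated ones, and 2 members, Loxl3 and P4ha2, had them wholly above. Over all genes, 22.1% lay wholly below and 21.9% wholly above.

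Levels between genes were compared per kilobase of annotated exon. In untreated cells the order was Loxl1 at 200.2 ± 16.9, Lox at 96.6 ± 2.01, Loxl2 at 61.5 ± 0.838, Plod2 at 49.3 ± 0.502 and Plod3 at 38.2 ± 1.42 CPM per kilobase, followed by P4ha3 at 35.8 ± 1.46, Plod1 at 29.7 ± 1.35, Loxl3 at 13.2 ± 0.319, P4ha2 at 10.5 ± 0.505 and Loxl4 at 2.77 ± 0.767 (SD, n = 2 each). No neighbours in that order overlapped between libraries. At 10 ng/ml Loxl1 stayed first at 107 ± 12.1, and Plod3 (39.8 ± 0.141) and Plod2 (31.1 ± 1.07) stood above Lox (22.7 ± 0.692) and Loxl2 (21.9 ± 1.72 CPM per kilobase). Lox and Loxl2 overlapped there, as did P4ha3 with Plod1 and P4ha2 with Loxl3. At 30 ng/ml Plod2 overlapped with Lox and Lox with Loxl2, and at 100 ng/ml Loxl2 overlapped with Plod2. Several of these places depend on the length used, since the longest transcript of P4ha2 has 3060 bases against 6239 in the union of its exons, and that of Plod1 4097 against 6765. Per kilobase of longest transcript, Plod2 (72.5 CPM) stood above Loxl2 (62.5), Plod1 (49.0) above P4ha3 (46.7) and P4ha2 (21.4) above Loxl3 (14.8) in untreated cells. On that length P4ha2 (29.0 CPM) and Plod1 (25.2) stood above Lox (22.9) at 10 ng/ml.

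Summed over the 5 lysyl oxidases, the level was 374 ± 16.9 CPM per kilobase in untreated cells, 169.7 ± 15.6 at 10 ng/ml, 195 ± 14.9 at 30 ng/ml and 326 ± 13.5 at 100 ng/ml (SD, n = 2 each). Within that sum Lox made up 24.6% and 27.1% in the untreated libraries, 12.8% and 14.0% at 10 ng/ml, 14.2% and 16.9% at 30 ng/ml, and 24.5% and 23.2% at 100 ng/ml. Loxl3 made up 3.48% and 3.58% in untreated libraries, 8.25% and 8.20% at 10 ng/ml, 7.67% and 6.57% at 30 ng/ml, and 4.29% and 4.18% at 100 ng/ml. Loxl1 made up 61.2% to 64.1% over the libraries at 10 and 30 ng/ml, against 51.9% and 54.9% in untreated libraries.

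The 3 lysyl hydroxylases summed to 117 ± 0.571 CPM per kilobase in untreated cells, 86.2 ± 0.373 at 10 ng/ml, 93.4 ± 2.80 at 30 ng/ml and 112 ± 0.574 at 100 ng/ml. Plod3 made up 46.2% of that sum in both libraries at 10 ng/ml, against 31.8% and 33.3% in untreated cells, and Plod2 made up 35.1% and 37.1% at 10 ng/ml, against 41.9% and 42.2% in untreated cells. P4ha2 and P4ha3 summed to 46.3 ± 1.96 CPM per kilobase in untreated cells, 30.4 ± 1.12 at 10 ng/ml, 34.8 ± 0.438 at 30 ng/ml and 43.6 ± 3.05 at 100 ng/ml. With P4ha1 counted in, P4ha3 made up 19.5% and 17.5% of alpha subunit message at 10 ng/ml, against 34.3% and 33.7% in untreated cells. P4ha2 made up 16.2% and 16.3% at 10 ng/ml, against 10.1% and 9.81% in untreated cells. With the longest transcript as length, the P4ha2 shares were 26.7% and 27.0% at 10 ng/ml, against 16.9% and 16.5% in untreated cells. These sums and shares describe the libraries and were not tested.

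**Figure D3:**
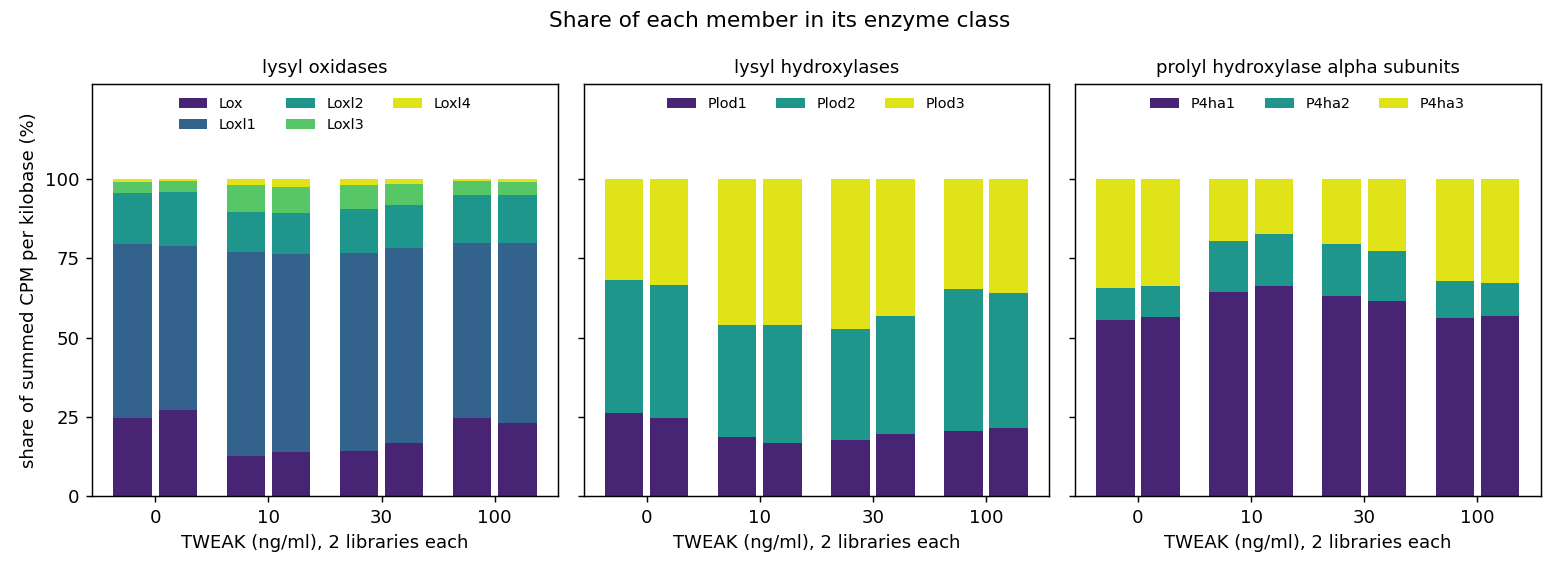
Share of each gene in the summed CPM per kilobase of its enzyme class (y axis, percent) in each of the 8 libraries, by labelled TWEAK dose (x axis, ng/ml, 0 is untreated). The third panel includes P4ha1. Lox fills 12.8% and 14.0% of the oxidase bars at 10 ng/ml, against 24.6% and 27.1% in untreated cells, and Plod3 fills 46.2% of both hydroxylase bars at 10 ng/ml.

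The substrates of these enzymes were read beside them. Of 10 collagen chain and elastin genes, 8 fell and 2 rose at 10 ng/ml, against 14.2% of all genes lower and 15% higher. The counts were the same at 30 ng/ml, against 10.7% of all genes lower and 12.6% higher. The median log2 changes were -0.55 and -0.45, against 0.01 over all genes in both. Col3a1, the chain of type III collagen, averaged 1910 ± 35.3 CPM at 10 ng/ml and 8910 ± 59.7 CPM in untreated cells (SD, n = 2 each), a log2 change of -2.22 ± 0.13 (edgeR adjusted p = 1.54e-05). Col1a1 fell by 1.35 ± 0.08 and Col5a2 by 1.28 ± 0.07 on the log2 scale at that dose. Col5a3, a minor fibrillar chain, rose by 1.80 ± 0.09, and Eln, which encodes elastin and was looked at after its values were seen, rose by 0.76 ± 0.08. At 100 ng/ml 5 of the 10 had an unadjusted p under 0.05 by edgeR, against 11.6% of all genes. By library values 6 lay wholly below and 1 wholly above the untreated libraries, against 22.1% and 21.9% of all genes. Only 1 of the 10 passed edgeR's test at 100 ng/ml, against 1.12% of all genes, namely Col5a3 (log2 change 0.71 ± 0.08, edgeR adjusted p = 0.00849). Leaving out untreated replicate 1, untreated replicate 2 or TWEAK100 replicate 1 ended that call, with edgeR adjusted p of 0.0625, 0.0702 and 0.0522.

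Of 25 further genes of collagen folding, glycosylation, trimming and fibril assembly, 23 passed the filter. At 10 ng/ml 10 of these fell and 4 rose, against 14.2% of all genes lower and 15% higher. At 30 ng/ml 7 fell and 3 rose, against 10.7% lower and 12.6% higher, so the rises lay near the share of all genes. The median log2 changes were -0.17 and -0.18, against 0.01 over all genes tested in both. Fmod, a proteoglycan that binds collagen fibrils and Lox, averaged 19.2 ± 4.68 CPM at 10 ng/ml and 155 ± 2.96 CPM in untreated cells, a log2 change of -3.02 ± 0.17 (edgeR adjusted p = 1.32e-05). The procollagen N-proteinases divided. Adamts2 and Adamts3 fell by 1.71 ± 0.09 and 2.94 ± 0.40, and Adamts14 rose by 2.39 ± 0.14 on the log2 scale at 10 ng/ml. Pcolce2, an enhancer of procollagen C-proteinase, fell by 1.20 ± 0.12, and Colgalt1, which adds galactose to hydroxylysine, rose by 0.79 ± 0.08. Of the 23, edgeR called 0 at 100 ng/ml, with 7 at an unadjusted p under 0.05 against 11.6% of all genes. DESeq2 called 1 higher and 3 lower there, against 391 higher and 207 lower of all 17360 genes. The limma-voom fit called 1 lower, against 91 of all genes.

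A list of 16 hypoxia targets was read because Lox, Loxl2, Plod2, P4ha1 and P4ha2 are known as targets of hypoxia-inducible factor in human and mouse cells. At 10 ng/ml 8 of the 16 rose and 1 fell, against 15% of all genes higher and 14.2% lower. The counts were the same at 30 ng/ml, against 12.6% of all genes higher and 10.7% lower. The median log2 changes were 0.56 and 0.47, against 0.01 over all genes tested in both. Pgk1, a glycolytic enzyme, rose by 1.16 ± 0.07, Slc2a1, a glucose transporter, by 0.84 ± 0.06, Ndrg1 by 0.81 ± 0.06 and Egln3, an oxygen-sensing prolyl hydroxylase, by 1.70 ± 0.13 on the log2 scale at 10 ng/ml (edgeR adjusted p from 1.56e-05 to 5.38e-05). The 1 of the 16 that fell was Adm, picked out after its values were seen (log2 change -0.78 ± 0.14, edgeR adjusted p = 0.0041). P4ha2 moved in the direction of the 8 that rose, while Lox, Loxl2 and Plod2 moved the other way, as Adm did. P4ha1 did not pass the test (adjusted p = 0.658). Of the 16, edgeR called 0 at 100 ng/ml, with 8 at an unadjusted p under 0.05 against 11.6% of all genes. DESeq2 called 6 higher there, against 391 of all 17360 genes, and limma-voom called 0, against 192 in either direction.

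**Figure D4:**
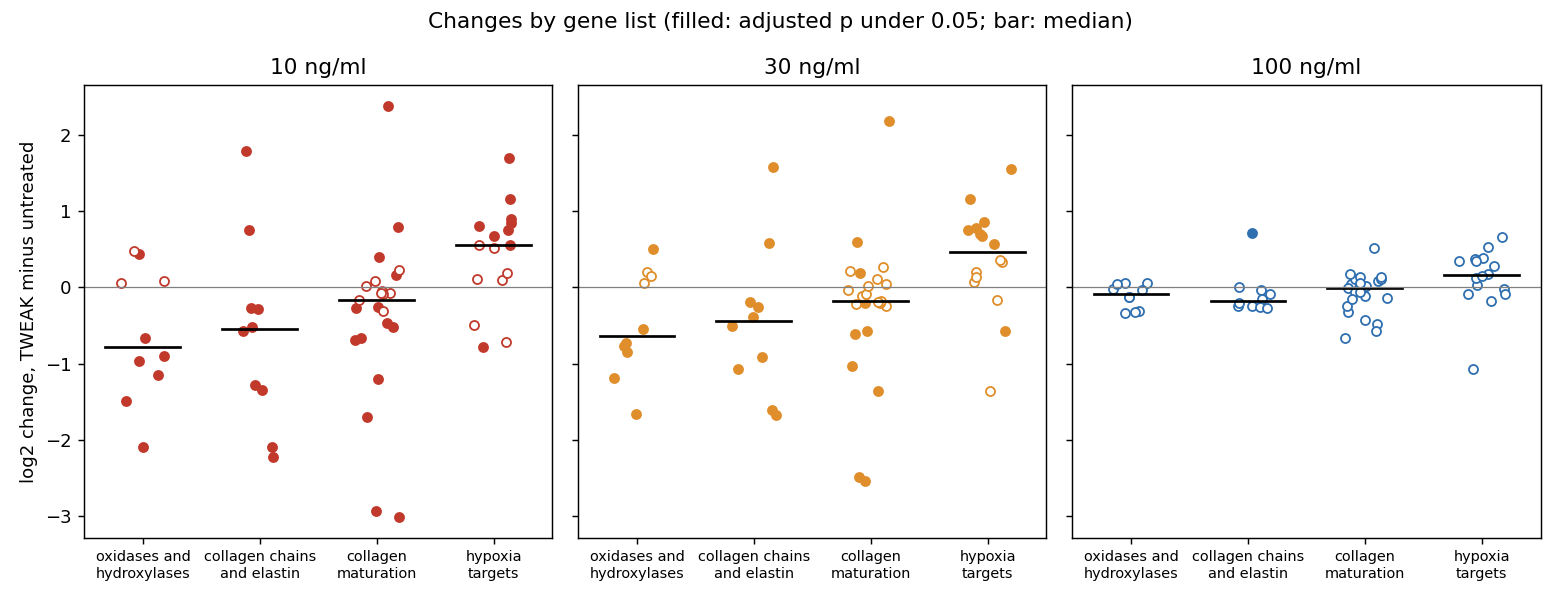
Log2 change against untreated cells (y axis) of the genes of each list (x axis) at 10, 30 and 100 ng/ml; points are genes, filled where the edgeR test passed, and bars are list medians. At 10 ng/ml the medians were -0.78 for the 10 oxidase and hydroxylase genes, -0.55 for collagen chains and elastin, -0.17 for collagen maturation and 0.56 for hypoxia targets.

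Markers of cell types were read in the same libraries. The summed level of 8 fibroblast markers ranged from 20445 to 20791 CPM in untreated libraries, 9932.5 to 10005 CPM at 10 ng/ml, 10834 to 12139 CPM at 30 ng/ml and 18103 to 18966 CPM at 100 ng/ml. This list shares Col1a1, Col1a2 and Col3a1 with the substrates and Dcn with the maturation list. Those 3 collagen chains summed to 17141 to 17492 CPM in untreated libraries, 6392.5 to 6657 CPM at 10 ng/ml, 7391 to 8893 CPM at 30 ng/ml and 15079 to 15814 CPM at 100 ng/ml. The other 5 fibroblast markers summed to 3299.5 to 3303 CPM in untreated libraries, 3348.5 to 3539.9 CPM at 10 ng/ml, 3246 to 3443 CPM at 30 ng/ml and 3024 to 3152 CPM at 100 ng/ml. Of the 8, edgeR called 6 lower and 2, Pdgfra and Dcn, higher at 10 ng/ml, against 14.2% of all genes lower and 15% higher. Besides the 3 collagen chains, those lower were Pdgfrb, Lum and Thy1, with log2 changes of -0.86 ± 0.06, -2.20 ± 0.20 and -1.34 ± 0.09. The sum of 6 macrophage markers, mostly Cd14 and Lyz2, ranged from 27.2 to 31.2 CPM in untreated libraries, 53.6 to 62.4 CPM at 10 ng/ml, 46.1 to 57.6 CPM at 30 ng/ml and 41.6 to 44.9 CPM at 100 ng/ml, and the pan-leukocyte gene Ptprc averaged at most 0.325 CPM in any group. That of 5 mesothelial markers ranged from 12.6 to 13.1 CPM in untreated libraries, 4.58 to 6.25 CPM at 10 ng/ml, 4.36 to 5.62 CPM at 30 ng/ml and 8.39 to 11.1 CPM at 100 ng/ml. Over all 8 libraries, 7 epithelial markers summed to at most 1.36 CPM with Epcam at 0 counts, 6 endothelial markers to between 5.83 and 7.69 CPM, and 5 smooth muscle markers to between 212 and 274 CPM. Single markers within these sums moved in opposite directions at 10 ng/ml. The endothelial marker Cdh5 rose to 4.04 ± 0.327 CPM, against 0.150 ± 0.0420 CPM in untreated cells, and Tek fell to 1.46 ± 0.321 CPM, against 4.73 ± 0.340 CPM (SD, n = 2 each). Of the smooth muscle markers, Des rose by 1.86 ± 0.13 on the log2 scale, while Myh11, Cnn1 and Actg2 fell, with log2 changes of -1.05 ± 0.22, -1.77 ± 0.23 and -0.98 ± 0.18. The part of these markers in the changes of the oxidases and hydroxylases was not tested.

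On GRCm38, Loxl1 lies on chromosome 9 from 58287738 to 58313186, Loxl2 on chromosome 14 from 69609068 to 69695834, Plod2 on chromosome 9 from 92542223 to 92608428 and P4ha3 on chromosome 7 from 100285520 to 100319699. P4ha2 lies on chromosome 11 from 54100095 to 54131665, Plod1 on chromosome 4 from 147909753 to 147936767, Plod3 on chromosome 5 from 136987019 to 136996648, Loxl3 on chromosome 6 from 83034173 to 83052562 and Loxl4 on chromosome 19 from 42593982 to 42612813. Exons of 5 members overlap those of another gene, by 30 bases in Lox, 308 in Loxl2, 346 in Plod2, 535 in Loxl3 and 538 in Plod3, and since the counting is not stated to use strand, reads there could belong to either gene. Exons of Col3a1, Eln, Colgalt1, Slc2a1 and Ndrg1 overlap other genes as well, as do those of the markers Pdgfra (652 bases) and Des (220 bases). The longest run of identical bases between transcripts of any 2 members was 47, between Loxl2 and Plod3.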

How the data were processed

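Raw counts per gene, not normalized, stand in the single table that the authors deposited. STAR, StringTie and the mm10 build are named in the submitters' processing notes, without versions or roles; for the counting program, annotation and strand setting, the sources used here give nothing. Of 55335 rows, 3225 had no gene symbol and held 0.168% to 0.178% of a library's counts. They were left out, and 80 symbols on more than 1 row were kept as separate rows.

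All 8 libraries entered 1 quasi-likelihood fit in edgeR 4.0.16 (R 4.3.3) with a mean per group, after filterByExpr (17360 genes) and TMM scaling, with 4 residual and 3.77 prior degrees of freedom. The 6 pairwise contrasts were tested two-sided, with Benjamini-Hochberg adjustment over all genes tested and a threshold of 0.05. Each SE is approximate, being the change divided by the root of its F. Within each pair, counts varied beyond sampling noise (chi-square per degree of freedom 23.6 to 29.1), and all 8 libraries were kept as separate.

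CPM were divided by the union of exons in GENCODE M21. Promoters were those of RefSeq. Alternatives were DESeq2 1.42.0, limma-voom (limma 3.58.1), other scalings, filters and fits, and leaving out each library. Of the fits, only that of edgeR was run on simulated counts, with known changes placed at 10 ng/ml, and its outcome is not given here. The members and gene lists were chosen with earlier results of these data known. All members are named. Of the other lists, the 6 collagen maturation genes and 4 genes each of the substrate and hypoxia lists with the smallest p at 10 ng/ml are named. Marker genes are named as markers, those singled out after their values were seen. P4ha1, P4hb, Eln and Adm were likewise chosen after theirs were seen.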

Additional observations from a re-analysis of the deposited data

How the results depend on the processing

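The number of members called was 7 at 10 ng/ml, 7 at 30 ng/ml, and 7 each for 100 against 10 and 100 against 30 ng/ml, and it stayed within 1.5 times that number under each alternative run. Leaving out 1 library gave 7 to 8 at 10 ng/ml, 7 at 30 ng/ml, 7 for 100 against 10 ng/ml, 6 to 7 for 100 against 30 ng/ml, 0 at 100 ng/ml and 0 to 1 for 30 against 10 ng/ml. Such a fit assumes that a lone library varies as those of other groups do. The 1 call between 30 and 10 ng/ml, of Lox, came without TWEAK30 replicate 1 (log2 difference 0.62, adjusted p = 0.0272). DESeq2 called 2 members at 100 ng/ml and 1 between 30 and 10 ng/ml; the cause was not tested. Without both libraries labelled 100 ng/ml, an alternative chosen after seeing the data, 7 members were called at each lower dose. Of all 17360 genes, that alternative called 4920 at 10 ng/ml and 3885 at 30 ng/ml.

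Same-numbered deviations correlated between -0.046 and 0.028 over genes, so no shift shared by replicate number was seen. Such correlations cannot show whether same-numbered libraries came from the same culture or mouse. With the replicate block, 7 members were called at 10 ng/ml, 7 at 30 ng/ml, 0 at 100 ng/ml, 0 for 30 against 10 ng/ml, 7 for 100 against 10 ng/ml and 7 for 100 against 30 ng/ml. Of all 17360 genes, the fit with the block called 4661, 3578, 136, 0, 3340 and 2231 in the same order.

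None of the changes that turned direction was called, before or after. Plod2 at 100 ng/ml was 0.0043 with library totals and ran from -0.043 without TWEAK100 replicate 1 to 0.011 without replicate 2. Loxl4 at 100 ng/ml ran from -0.29 without untreated replicate 2 to 0.29 without untreated replicate 1, with 0.14 without TWEAK100 replicate 1, and at 30 ng/ml from -0.050 to 0.52 without those same untreated libraries. Loxl3 at 10 ng/ml was -0.029 without TWEAK10 replicate 1 and 0.17 without replicate 2, and Colgalt1 at 100 ng/ml was -0.019 without untreated replicate 2 and 0.13 without replicate 1.

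Summed levels per kilobase moved with the length used. With the longest transcript, chosen after seeing the data, the lysyl hydroxylases summed to 174 in untreated cells, 126 at 10, 137 at 30 and 165 CPM per kilobase at 100 ng/ml, and P4ha2 with P4ha3 to 68.1, 50.1, 56.4 and 64.9. With library totals the lysyl hydroxylases summed to 116 in untreated cells and 86.7 at 10 ng/ml, and with DESeq2 size factors to 116.5 and 85.7. Leaving out 1 library gave 362 to 386, 159 to 181, 184 to 205 and 317 to 336 for the lysyl oxidases in untreated cells and at 10, 30 and 100 ng/ml, 117 to 118, 85.9 to 86.4, 91.5 to 95.4 and 111 to 112 for the lysyl hydroxylases, and 44.9 to 47.7, 29.6 to 31.2, 34.5 to 35.1 and 41.5 to 45.8 for P4ha2 with P4ha3.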
